A study of Mus musculus with 24 samples.

Results

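The replication-dependent histone genes of the mouse were taken as all protein-coding genes of GENCODE M1 (mm9) whose name starts with Hist1h, Hist2h, Hist3h or Hist4h, and 67 of 22380 protein-coding genes met this rule. They comprised 6 H1, 19 H2A, 18 H2B, 11 H3 and 13 H4 genes, of which 55 lie on chromosome 13, 9 on chromosome 3, 2 on chromosome 11 and 1 on chromosome 6. Their levels were measured by sequencing of ribosomal RNA depleted RNA in 16 libraries of 2 tissues, differentiated CCE cells and fetal head (FH), to compare tissues, fragmentation methods and depletion kits. CCE is a feeder-independent line of embryonic stem cells from 129/SvEv mice that was deprived of LIF and treated with 0.266 µM retinoic acid for 5 days, and FH was taken from FVB/N mice at 14.5 dpc and holds many tissues besides brain. The 14 RiboMinus libraries came from 7 cDNA preparations, namely 2 sheared and 2 hydrolysed preparations of CCE and 1 sheared and 2 hydrolysed preparations of FH, each sequenced at Vienna-IMP and Nijmegen, and 1 hydrolysed Ribo-Zero library per tissue was sequenced at Vienna-CeMM. Preparations of CCE are technical replicates, 1 hydrolysed FH preparation was depleted in 2 rounds, and no separate animals are stated, so that p-values between preparations measure a spread that may be technical.

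Histones package DNA, with H2A, H2B, H3 and H4 forming the nucleosome core and the linker histone H1 binding the DNA between nucleosomes. The replication-dependent genes are transcribed mainly in S phase, when new DNA must be packaged, and they sit in clusters of many near-identical copies. Their mRNAs are the animal mRNAs that lack a poly(A) tail. They end instead just after a conserved stem-loop that is bound by the stem-loop binding protein, so that poly(A) selection loses them while ribosomal RNA depletion can keep them.

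A stem-loop of the histone type, 16 nt long with 6 base pairs of which at most 1 was allowed to be unpaired, was found within 150 nt of the stop codon in 62 of 67 histone genes (92.5%) and in 12 of 21863 other protein-coding genes (0.0549%), one of which was the H2A variant gene H2afx. The stop codon and the stem-loop were 21 to 58 nt apart, with a median of 30.5 nt. The most frequent core was carried by 40 genes of 4 classes, whereas the H4 genes with a stem-loop had stems not found in the other classes. No stem-loop was found by this rule in Hist1h2al, Hist1h2an, Hist1h3g, Hist1h4a and Hist2h2be. One gene with each of the 6 cores found is given so that the stems can be compared, read from mm9 on the strand of the gene with the stem-loop in capitals and 5 flanking bases on each side.
Hist1h1e, chr13:23713646-23713671, minus strand: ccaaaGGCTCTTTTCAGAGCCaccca
Hist1h2bb, chr13:23839067-23839092, plus strand: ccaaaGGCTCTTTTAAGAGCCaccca
Hist2h2ac, chr3:96024336-96024361, minus strand: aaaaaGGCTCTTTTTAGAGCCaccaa
Hist1h4h, chr13:23623322-23623347, plus strand: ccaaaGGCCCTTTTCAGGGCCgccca
Hist1h4i, chr13:22132830-22132855, minus strand: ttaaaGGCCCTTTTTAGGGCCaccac
Hist1h4b, chr13:23849230-23849255, plus strand: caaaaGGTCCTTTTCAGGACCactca

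The core of Hist1h1e was found in 40 genes and that of Hist1h2bb, with an A in the loop, in 9 genes, while the core of Hist2h2ac was found in 1 gene. In the H4 class the core of Hist1h4h was found in 8 genes, that of Hist1h4i in 2 and that of Hist1h4b in 2.

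The tags stopped at the stem-loop in every library. Density in the window from 20 to 220 nt past the stem-loop was 0.179% to 0.416% of the density between the annotated 5′ end and the stem-loop in the 6 sheared libraries and 0.612% to 1.37% in the 8 hydrolysed RiboMinus libraries, and these ranges did not overlap. In the Ribo-Zero libraries it was 0.484% in CCE and 0.545% in FH. These percentages also depend on the density before the stem-loop. In tags per kb in CPM of unique tags, that density was 339 to 861 in sheared and 229 to 559 in hydrolysed RiboMinus libraries. The density past the stem-loop itself overlapped, at 1.09 to 2.70 in sheared and 1.96 to 3.79 in hydrolysed RiboMinus libraries. The tags past the stem-loop numbered 12 to 73 in a RiboMinus library, so that single genes cannot be compared there, and 1257 and 911 in the CCE and FH Ribo-Zero libraries.

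**Figure D1:**
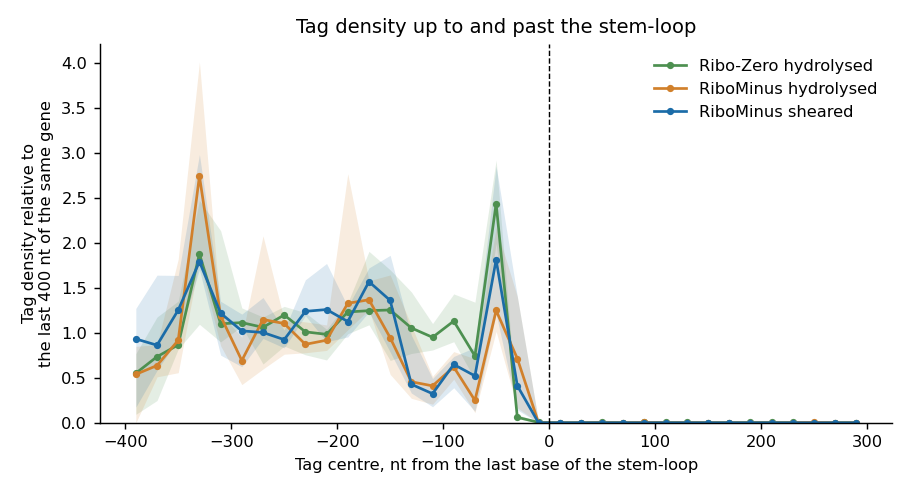
Median tag density relative to the last 400 nt before the end of the stem-loop (y axis) in bins of 20 nt by the distance from the last base of the stem-loop (x axis, dashed line at the end), with quartiles as shading, for sheared RiboMinus, hydrolysed RiboMinus and Ribo-Zero libraries, over the 29 genes with at least 100 tags in each kind of library and bins with at least 10 unique positions. In the bin centred 50 nt before the end of the stem-loop the median was 1.81 in sheared, 1.25 in hydrolysed and 2.44 in Ribo-Zero libraries, and it was at or near 0 from 10 nt before the end onwards.

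The fragmentation methods differed in how much of the signal came from the 3′ end. Of all tags between the annotated 5′ end and the end of the stem-loop, 27.3% to 36.05% lay in the last 60 nt in the 6 sheared libraries, against 13.97% to 20.5% in the 8 hydrolysed RiboMinus libraries, with no overlap. The Ribo-Zero libraries, also hydrolysed, gave 15.3% in CCE and 19.0% in FH. In this window 96.9% to 99.8% of the tags were read from the strand opposite to the gene, that is, they started at the end of a cDNA and read into the gene. In CCE RiboMinus libraries the share in this window was 54.0% in sheared against 33.5% in hydrolysed libraries for H3, 39.9% against 19.3% for H4, 47.6% against 30.5% for H2A and 23.2% against 9.94% for H2B. H1 had 7.13% in sheared and 8.09% in hydrolysed libraries. In FH the gap was smaller for H3, at 54.5% against 48.0%, and the shares were 36.6% against 21.6% for H4, 41.3% against 30.8% for H2A, 28.1% against 9.24% for H2B and 6.05% against 7.91% for H1. In Hist1h4j most RiboMinus tags lay in this window, with 100% of 640 in sheared and 97.6% of 124 in hydrolysed CCE libraries and 96.4% of 250 in sheared and 85.7% of 147 in hydrolysed FH libraries, so that its level rested on the 3′ end. Only 72 of its 419 positions up to the end of the stem-loop are unique to 36 nt tags. The shares were not corrected for where unique positions lie, so that classes and genes cannot be compared by them.

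The near identity of the copies limited where unique tags could fall. Of the 67 genes 8 have a reading frame identical to that of another histone gene. A position counted as unique when the 36 nt tag centred on it had 1 place in mm9 with up to 2 mismatches, the limits of the alignment. The median share of unique exon positions was 33.7%, with class medians of 83.1% for H1, 31.0% for H2A, 29.0% for H2B, 28.5% for H3 and 34.9% for H4. With the 51 nt tags and 3 mismatches of the Ribo-Zero libraries the median over the 67 genes was 35.96%. In 8 genes no position was unique, and 21 genes had under 20%, namely Hist1h2af, Hist1h2ag, Hist1h2al, Hist1h2an, Hist1h2ao, Hist1h2ap, Hist1h2bf, Hist1h2bh, Hist1h2bj, Hist1h2bl, Hist1h2bn, Hist1h2bq, Hist1h2br, Hist1h3e, Hist1h4j, Hist1h4k, Hist1h4m, Hist1h4n, Hist2h2aa1, Hist2h2aa2 and Hist2h3b. Positions with more than 1 exact place made up 40.9% of all histone exon positions and held 0 tags in RiboMinus libraries. Positions with 1 place held 1.55 tags each over the Vienna-IMP libraries, whereas positions with 1 exact place and near matches elsewhere held 0.607. The RPKM of a histone gene thus leaves out tags of shared positions, and levels of different genes were compared only by the tags at unique positions up to the stem-loop, per kb of such positions. The annotated exons of some genes run past the stem-loop, which lowers their RPKM. The filter of a mean RPKM over 1 was passed by 59 genes and missed by 8, namely Hist1h2ao, Hist1h2ap, Hist1h2bq, Hist1h2br, Hist1h4m, Hist2h2aa1, Hist2h2aa2 and Hist2h3c1.

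Depth was 920424 to 2473448 unique tags per RiboMinus library and 28708715 and 48426051 in the CCE and FH Ribo-Zero libraries. In the Ribo-Zero libraries 8.23% and 4.54% of these were mitochondrial, whereas the authors removed mitochondrial tags from the RiboMinus libraries. The totals behind the Ribo-Zero RPKM include these tags, and the RiboMinus totals do not. Between the locations the difference of preparation 1 and 2 correlated at -0.372 in hydrolysed CCE and -0.382 in hydrolysed FH over 12502 genes, so that the hydrolysed values given here, which sum both locations under 1 number, may mix 2 preparations and understate their spread. Markers were set beside the tissue labels. All 10 endoderm genes listed for CCE were lower in FH. Of 8 neuron and 6 red cell genes listed, the 6 and 4 tested were all higher in FH. Of the 4 neural progenitor genes tested 3 were higher and Vim was lower. Several passed the filter only through FH, such as Dcx and Hbb-b1, at a mean RPKM of 0.041 and 0 in CCE. Gata4, at 13.1 in CCE and 0 in FH, passed only through CCE. These counts are thus a description and no test of the labels.

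Tags in histone exons summed to 2402 to 8805 CPM in the RiboMinus libraries, with all unique tags of a library as the total. In sheared CCE libraries this summed level was 7893 and 3363 for the preparations CCE1 and CCE2 at Vienna-IMP and 8805 and 5319 at Nijmegen. In hydrolysed CCE libraries it was 2658 and 3764 at Vienna-IMP and 5722 and 3332 at Nijmegen. The preparations and locations thus spread widely, and sheared and hydrolysed CCE libraries overlapped. In FH the sheared preparation gave 3949 at Vienna-IMP and 7544 at Nijmegen, and the 4 hydrolysed libraries gave 2402 to 2738, below the sheared ones. With the locations summed the sheared preparations gave 8216 and 4372 in CCE and 5701 in FH, all above the 4 hydrolysed preparations, which gave 3824 and 3518 in CCE and 2474 and 2616 in FH. The Ribo-Zero libraries gave 9476 in CCE and 3593 in FH. In such bulk samples fewer cells in S phase and less histone mRNA per cell cannot be told apart.

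**Figure D2:**
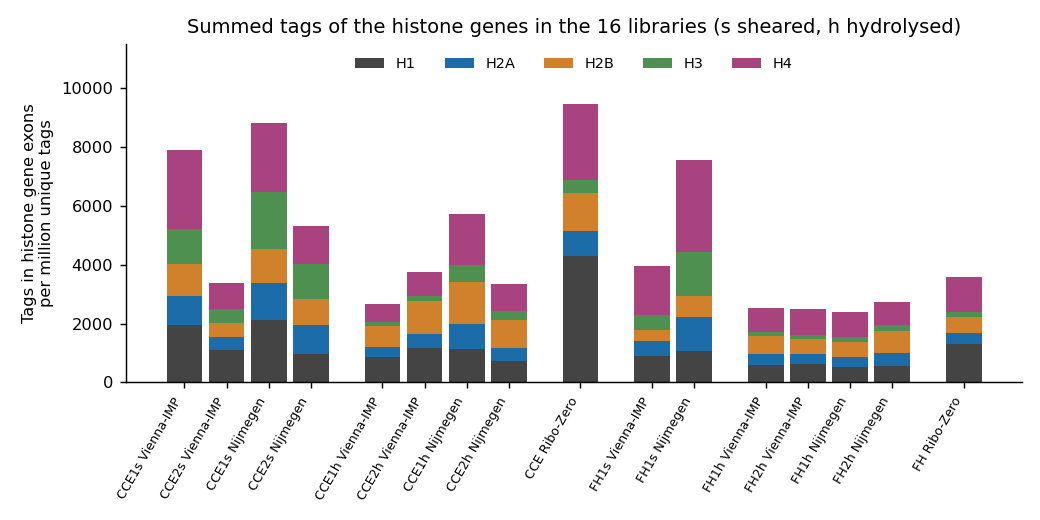
Tags in exons of the histone genes in CPM of unique tags (y axis) in each of the 16 libraries (x axis), as bars stacked by histone class and grouped by tissue, fragmentation and depletion kit. Sheared FH libraries lie above hydrolysed FH libraries, while in CCE the sheared libraries at 3363 to 8805 overlap the hydrolysed libraries at 2658 to 5722, and the CCE Ribo-Zero library is the highest at 9476.

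To compare genes, densities were taken as tags per kb in CPM at the unique positions between the annotated 5′ end and the last base of the stem-loop, in the 62 genes with a stem-loop, as means ± SD over the 3 sheared and the 4 hydrolysed preparations. The unique positions lie in different parts of the genes, so that the order of genes is a description. Of the linker histone genes, whose products compact nucleosome arrays, Hist1h1c had 1181 ± 506 in sheared and 487 ± 93.7 in hydrolysed preparations, Hist1h1e 569.9 ± 317 and 377 ± 142, and Hist1h1b 447 ± 151 and 306 ± 14.2. The densities of Hist1h1c and Hist1h1e overlapped across preparations in both methods, but within every single preparation Hist1h1c was above Hist1h1e. Hist1h1e (ENSMUSG00000051627.2, chr13:23713624-23714371, 748 nt of exon) had an RPKM of 601 and 304 in sheared and 329 and 319 in hydrolysed CCE preparations, and 203 in the sheared and 165 and 163 in the hydrolysed FH preparations. Every CCE preparation was above every FH preparation.

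Of the H2A genes Hist1h2ai had the highest mean in both methods, at 2097 ± 656 and 702 ± 255, on 78 unique positions. The next were Hist1h2ab (703 ± 174 and 300.96 ± 38.1) and Hist3h2a (633 ± 145 and 494 ± 79.0). Hist1h2ab was above Hist3h2a in all sheared and below it in all hydrolysed preparations. Of the H2B genes Hist2h2bb led, at 1815 ± 818 and 2048 ± 737, and the next were Hist1h2bc in sheared (988 ± 280.4) and Hist1h2bb in hydrolysed preparations (384 ± 95.3). Of the H3 genes Hist1h3e (1762 ± 758, on 15 unique positions), Hist1h3i (1758 ± 726) and Hist2h3b (1547 ± 639) did not differ beyond their spread in sheared preparations. In hydrolysed preparations they lay far lower, at 385 ± 209.65, 224 ± 77.6 and 191 ± 45.3. Of the H4 genes, whose product pairs with H3, Hist1h4h had 3539.6 ± 1830.35 in sheared and 1475 ± 218 in hydrolysed preparations, Hist1h4c 2661 ± 1319 and 1194 ± 96.1, and Hist1h4d 2566 ± 1157 and 1745 ± 556. These 3 H4 genes had the highest means of all histone genes in sheared preparations, whereas in hydrolysed preparations Hist2h2bb lay above them, and their spreads overlapped those of the next genes.

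Hist1h4h (ENSMUSG00000060981.4, chr13:23622919-23623388) reached 1305 and 593 RPKM in sheared CCE, 1907 in sheared FH, 562 and 417 in hydrolysed CCE and 597 and 542 in hydrolysed FH preparations. Sheared values were above hydrolysed ones within CCE and within FH, although the sheared CCE2 value was just below a hydrolysed FH value, and the log2 difference was -1.21 ± 0.29 (hydrolysed minus sheared, limma adjusted p = 0.00975).

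Most histone genes were lower in hydrolysed than in sheared preparations, the H3 genes by the largest median, while 2 H2B genes were higher by their exon tags, of which Hist2h2bb did not pass with tags up to the stem-loop. Values in hydrolysed preparations were compared with sheared ones in a limma fit of log2(RPKM + 1) with tissue as a further term, adjusted over 12502 tested genes with the Benjamini-Hochberg method at 0.05. Of the 59 histone genes 42 (71.2%) were lower in hydrolysed preparations, where 17.6% of all genes were, and 2 (3.39%) were higher, where 24.6% of all genes were. The median log2 difference was -1.23 over the histone genes and 0.07 over all genes. On a median-of-ratios scale 44 (74.6%) were lower, beside 22.9% of all genes, and 1 (1.69%) was higher, beside 18.3%. All 10 H3 genes fell, with a median of -2.09, as did 10 of 12 H4 genes (-1.30), 11 of 15 H2A genes (-1.15) and 9 of 16 H2B genes (-1.03), and both genes that rose were H2B genes. Of the H1 genes 2 of 6 were lower, Hist1h1c and Hist1h1d, with a median of -0.50. All sheared preparations were above all hydrolysed ones within CCE and within FH in 38 of the 59 genes (64.4%), beside 22.2% of all genes, while the reverse held in 1 (1.69%), beside 31.4%. A difference of this effect between the tissues was not detectable with 1 sheared FH preparation, since the interaction term in limma passed in 0 histone genes (0%) and in 7 of all genes (0.056%), with 3 histone genes and 1059 of all genes at an unadjusted p under 0.05.

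With every tag counted, Hist1h3i (ENSMUSG00000075032.3, chr13:21874784-21875266) showed the largest decrease. Its RPKM was 520.0 and 248 in sheared CCE and 292 in sheared FH, against 63.8 and 54.1 in hydrolysed CCE and 27.9 and 35.9 in hydrolysed FH preparations. The lowest sheared value was several times the highest hydrolysed value, and the log2 difference was -2.82 ± 0.25 (SE, limma adjusted p = 0.000316).

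Hist2h3b (ENSMUSG00000074403.2, chr3:96072577-96073064) gave 443, 196 and 293 RPKM in the sheared CCE1, CCE2 and FH preparations and 48.3, 52.4, 32.6 and 36.03 in the hydrolysed CCE1, CCE2, FH1 and FH2 preparations, a log2 difference of -2.74 ± 0.25 (limma adjusted p = 0.000339). Hist1h4j (ENSMUSG00000067455.3, chr13:21826903-21827329) gave 392, 121 and 310.0 in sheared and 42.8, 35.5, 39.7 and 45.5 in hydrolysed preparations in the same order, a log2 difference of -2.61 ± 0.33 (limma adjusted p = 0.000844). Sheared and hydrolysed values did not overlap in either gene. All 3 genes lie at or near 20% unique positions, and in sheared CCE libraries 81.8% of the tags of Hist1h3i and 93.1% of those of Hist2h3b lay in the last 60 nt before the end of the stem-loop, against 50.7% and 74.4% in hydrolysed ones. In FH these shares were 75.9% and 90.4% in sheared against 74.4% and 80.7% in hydrolysed libraries. With each position counted once the differences shrank to -1.38 for Hist1h3i, -0.89 for Hist2h3b and -1.26 for Hist1h4j, beside a histone median of -0.90. This count is capped by the number of positions. The hydrolysed preparations were also deeper, at 3366218 to 4322418 unique tags against 1888761 to 2986369 in sheared ones. For abundant genes with few unique positions it therefore cannot decide the size or sign of the difference.

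The H2B genes Hist2h2bb and Hist1h2bb moved the other way. Hist2h2bb (ENSMUSG00000050936.3, chr3:96073644-96082924, 2 exons) had 379 and 213 RPKM in sheared and 483 and 493.1 in hydrolysed CCE, and 127 in sheared and 243 and 282 in hydrolysed FH preparations, a log2 difference of 0.88 ± 0.19 (limma adjusted p = 0.00704). Hist1h2bb (ENSMUSG00000075031.2, chr13:23838603-23839071) had 154 and 82.8 in sheared and 123 and 159.6 in hydrolysed CCE, and 36.1 in sheared and 100.5 and 94.2 in hydrolysed FH preparations, a difference of 0.75 ± 0.27 (limma adjusted p = 0.0492). The annotated exons of Hist2h2bb lie mostly past the stem-loop, but they also leave out part of the stretch before it. Hydrolysed CCE RiboMinus libraries held 5422 tags in the exons and 6772 between the annotated 5′ end and the end of the stem-loop. Of the tags in that stretch 18.0% in sheared and 7.77% in hydrolysed CCE libraries lay in its last 60 nt. With tags up to the end of the stem-loop its RPKM was 2016 and 1189 in sheared and 1960.4 and 1992 in hydrolysed CCE, and 827 in sheared and 990.4 and 1113 in hydrolysed FH preparations, and the difference of 0.35 ± 0.19 did not pass (limma adjusted p = 0.172). In the exon tags of Hist2h2bb the order held in both tissues, whereas in Hist1h2bb the CCE preparations overlapped. With each position counted once, a count capped as described above, both differences took the other sign, at -0.35 and -0.073. The call for Hist1h2bb was lost with a replicate block by the labelled numbers (0.69), kept with the Vienna-IMP hydrolysed numbers exchanged (0.72, limma adjusted p = 0.0346), and lost in 5 of the 7 fits without 1 preparation, all but those without either CCE1 preparation, and that for Hist2h2bb was lost without the sheared FH preparation (0.78).

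**Figure D3:**
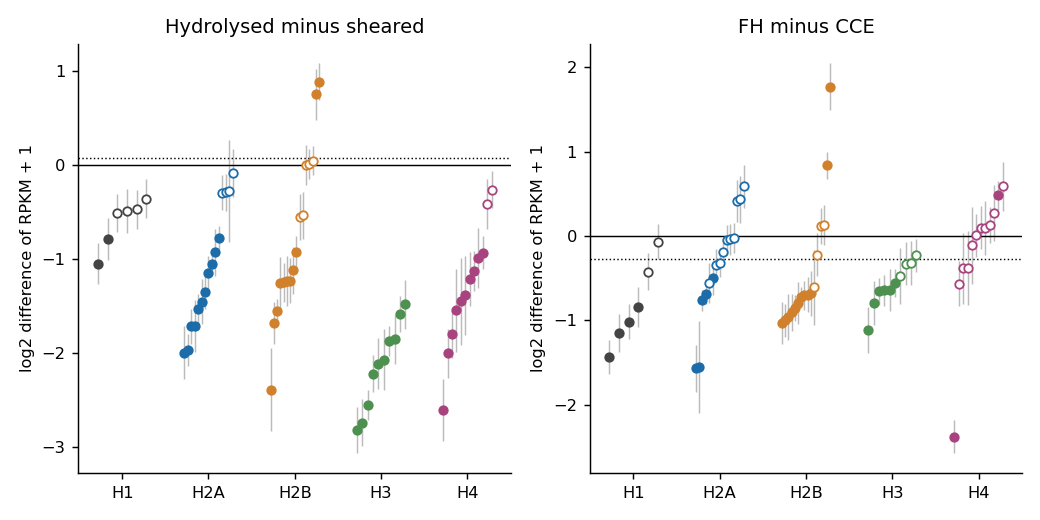
Log2 differences of RPKM + 1 (y axis) with their standard errors for each of the 59 histone genes past the filter, by histone class (x axis), for hydrolysed minus sheared and for FH minus CCE preparations, with filled points for a limma adjusted p under 0.05 and a dotted line at the median of all genes. The H3 genes lie furthest below 0 in the fragmentation difference, at a median of -2.09, and Hist3h2ba lies furthest above 0 in the tissue difference, at 1.77.

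Gene length and base composition were set beside this effect. The exons of the histone genes were short, with a median of 530 nt and 53 genes of at most 1000 nt. Among the other protein-coding genes 11.9% of the 134 with at most 500 nt and 14.02% of the 478 with 500 to 1000 nt were lower in hydrolysed preparations, beside 19.7% of the 1918 with 1000 to 2000 nt. The share of lower genes rose with GC content, whose part in the result was not tested beyond the fits given here. The histone genes had a median GC content of 59.4%, against 50.9% over the tested genes. Of the other genes 1.02% were lower at up to 45% GC, 2.98% at 45% to 50%, 13.6% at 50% to 55%, 41.1% at 55% to 60% and 65.4% above 60%, and of the histone genes 54.5% of 11, 66.7% of 18 and 83.3% of 24 were lower in the last 3 of these bins. Within each of these bins the histone median was lower, at -0.93, -1.17 and -1.61 against -0.03, -0.36 and -0.65 in other genes. With the GC trend of each preparation removed, 30 histone genes (50.8%) were lower, beside 8.16% of all genes, and the median was -0.80. With the replicate block added 26 (44.1%) were lower, beside 3.88% of all genes, at a median of -0.75. Of the 12 other genes with a stem-loop by the same search, 9 were tested, of which 2 were lower, H2afx among them, and 2 were higher, with a median of -0.10. H2afx had a log2 difference of -1.38 ± 0.14 (limma adjusted p = 0.000519), and the H1 variant gene H1fx, not found to have a stem-loop, one of -1.63 ± 0.29 (limma adjusted p = 0.00309).

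**Figure D4:**
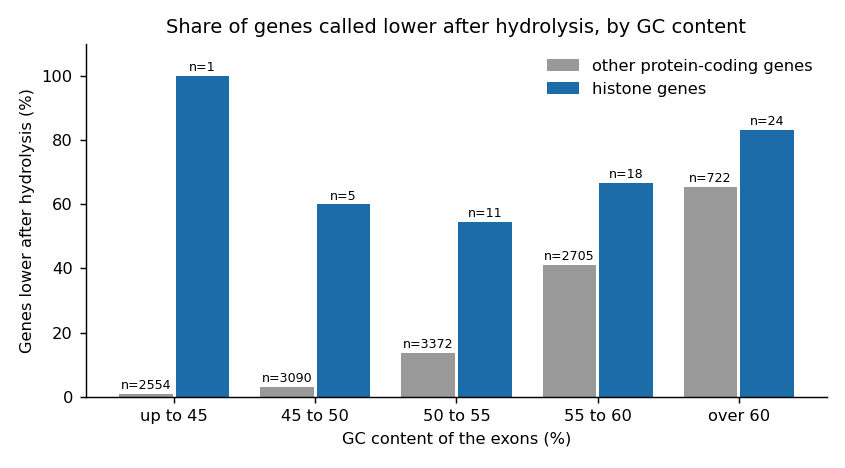
Bars of the percent of genes lower in hydrolysed than in sheared preparations (y axis, limma adjusted p under 0.05) by bins of exon GC content in percent (x axis), for the histone genes and the other protein-coding genes. The share rises with GC in other genes, from 1.02% to 65.4%, and the histone genes lie above them in each bin, at 83.3% above 60% GC, with only 1 and 5 histone genes in the bins up to 50%.

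Between the tissues the histone genes were lower in FH at about the share of all genes, with Hist1h4k, Hist1h2ah and Hist1h1a among the lower and Hist3h2ba among the higher genes. In the same limma fit, of the 59 histone genes 26 (44.1%) were lower in FH than in CCE, beside 44.2% of all genes, and 3 (5.08%) were higher, beside 25.2% of all genes. The share of lower genes is thus that of all genes, and the median log2 difference was -0.47 over the histone genes and -0.28 over all genes. On a median-of-ratios scale, which centres all genes at 0.01, 15 histone genes (25.4%) were lower, beside 30% of all genes, and 7 (11.9%) were higher, beside 34.1%, with a median of -0.13.

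Of the H1 genes 4 of 6 were lower in FH, with a median of -0.93, as were 10 of 16 H2B genes (-0.70), 6 of 10 H3 genes (-0.60) and 5 of 15 H2A genes (-0.32), whereas 1 of 12 H4 genes was lower and 1 was higher, with a median of 0.05. On the median-of-ratios scale 4 H1, 5 H2B, 1 H3, 4 H2A and 1 H4 genes were lower. In the Ribo-Zero libraries, 1 per tissue, 6 of 12 H4 genes were over 2-fold lower in FH by RPKM + 1 and 0 were higher. Over all genes these shares were 21.9% and 12.5%. The median log2 ratio of the H4 genes there was -0.99, against -0.42 over all genes. Within sheared and within hydrolysed preparations all CCE values were above all FH values in 20 histone genes (33.9%), beside 46.9% of all genes, and the reverse held in 4 (6.78%), beside 27.4%.

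Among the H1 genes Hist1h1a (ENSMUSG00000049539.1, chr13:23855537-23856283) had the largest difference and is nearly free of shared positions, with 97.6% unique. Its RPKM was 293 and 175 in sheared and 191 and 185 in hydrolysed CCE, and 107 in sheared and 52.3 and 64.4 in hydrolysed FH preparations, with no overlap between the tissues, and the log2 difference was -1.44 ± 0.20 (limma adjusted p = 0.000171). Hist1h1d, with 44.1, 23.3, 24.5 and 20.1 RPKM in the CCE1 and CCE2 sheared and CCE1 and CCE2 hydrolysed preparations and 18.8, 7.75 and 7.57 in the sheared FH1 and hydrolysed FH1 and FH2 preparations, was lower by a log2 difference of -1.15 ± 0.23 (limma adjusted p = 0.00141). Hist1h1b, in contrast, did not pass the test, at -0.07 ± 0.21 (limma adjusted p = 0.776). In the Ribo-Zero libraries, 1 per tissue, Hist1h1b was at 839 RPKM in CCE and 300 in FH.

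Of the core histone genes Hist1h4k (ENSMUSG00000064288.4, chr13:21842063-21842374) showed the largest difference when tags were counted by midpoint. Its RPKM was 94.4 and 67.5 in sheared and 67.4 and 50.5 in hydrolysed CCE preparations, and 11.9 in sheared and 14.7 and 9.64 in hydrolysed FH preparations. All CCE values were more than 3 times all FH values, and the log2 difference was -2.38 ± 0.20 (limma adjusted p = 5.03e-06). The gene has 12 unique positions, 3.85% of its exon, and the difference was -1.10 with any overlap with an exon and -1.25 with each position counted once, where it was smaller than that of Hist1h2ah (-1.57 and -1.27). Its annotated exon of 312 nt ends before the stem-loop. With tags up to the end of the stem-loop the difference was -1.10 ± 0.24 (limma adjusted p = 0.0025), from 261, 127, 115 and 107 RPKM in CCE to 66.9, 53.7 and 66.3 in FH. At the 56 unique positions of this stretch the tissues overlapped, with 371 tags per kb in CPM in hydrolysed CCE1 and 388 in hydrolysed FH2. In the H2A gene Hist1h2ah (chr13:22126982-22127512) the RPKM was 52.3 and 55.7 in sheared and 17.5 and 15.1 in hydrolysed CCE, and 24.9 in sheared and 2.03 and 6.10 in hydrolysed FH preparations, a log2 difference of -1.57 ± 0.28 (limma adjusted p = 0.00077). The tissues overlapped there across methods but not within a method.

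Hist3h2ba, Hist2h2be and Hist2h4 were higher in FH. On the median-of-ratios scale Hist1h4h, Hist1h2an, Hist1h2al and Hist2h2ab were called as well, at 0.94, 0.76, 0.70 and 0.92. In the Ribo-Zero libraries Hist1h4h (981 RPKM in CCE and 584 in FH) and Hist1h2al (16.0 and 6.06) had the other order, while Hist1h2an was at 16.3 and 20.4 and Hist2h2ab at 28.4 and 29.6. Hist1h2al had 0 RiboMinus tags at its 14 unique positions. Hist3h2ba (ENSMUSG00000056895.2, chr11:58762413-58763032) had 47.0 and 20.9 RPKM in sheared and 17.0 and 9.10 in hydrolysed CCE, and 108 in sheared and 46.9 and 43.7 in hydrolysed FH preparations, a log2 difference of 1.77 ± 0.27 (limma adjusted p = 0.000311). Its highest CCE value, in a sheared preparation, reached the hydrolysed FH values, while within each RiboMinus method FH was above CCE. The Ribo-Zero libraries did not show this order, with 31.6 RPKM in CCE and 27.4 in FH.

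Hist2h2be (ENSMUSG00000068854.6, chr3:96025044-96027661), an H2B gene with 2618 nt of exon in which no stem-loop was found by the rule above, was low in both tissues. It had 0.640 and 0.847 in sheared and 0.765 and 1.13 in hydrolysed CCE against 2.63 in sheared and 1.95 and 2.30 RPKM in hydrolysed FH preparations, without overlap, and differed by 0.84 ± 0.15 (limma adjusted p = 0.000986). With a mean RPKM of 0.847 in CCE and 2.29 in FH, Hist2h2be passed the filter only through FH. Its p-value is therefore a description. Hist2h4 (chr3:96065627-96067234) differed by 0.48 ± 0.17 (limma adjusted p = 0.0303), from 134, 82.8, 60.4 and 57.3 in the sheared CCE1 and CCE2 and hydrolysed CCE1 and CCE2 preparations to 164, 71.2 and 82.4 RPKM in the sheared FH1 and hydrolysed FH1 and FH2 preparations. Its tissues overlapped across methods, and the call was lost in 4 of the 7 fits that leave out 1 preparation, those without the hydrolysed CCE1, hydrolysed CCE2, sheared FH1 or hydrolysed FH2 preparation. In the Ribo-Zero libraries Hist2h4 was at 112 in CCE and 60.2 RPKM in FH, the other order, while Hist2h2be was at 0.559 and 2.00.

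Hist1h1t, Hist1h2aa and Hist1h2ba are known as histone genes of the testis germline. In RiboMinus preparations they were near the limit of detection, with Hist1h2ba at 2.85 to 5.16 RPKM in CCE and 0.595 to 2.72 in FH, Hist1h1t at 1.31 to 4.79 and 0.889 to 1.27, and Hist1h2aa at 0.948 to 9.44 and 0 to 1.36. All 3 were lower in FH in limma, by a log2 difference of -1.03 ± 0.25 for Hist1h2ba (adjusted p = 0.00445), -0.84 ± 0.23 for Hist1h1t (adjusted p = 0.00986) and -1.56 ± 0.54 for Hist1h2aa (adjusted p = 0.0278). At the 182 unique positions of Hist1h2ba up to the stem-loop, hydrolysed CCE1 and CCE2 held 4 and 3 tags and all other preparations 0. Its sheared and FH values thus rest on positions with near matches elsewhere, and so does part of its difference. The call for Hist1h2aa was lost in 4 of the 7 fits without 1 preparation, those lacking hydrolysed CCE1, sheared FH1, hydrolysed FH1 or hydrolysed FH2. Hist1h2aa passed the filter only through CCE, with a mean RPKM of 4.78 in CCE and 0.650 in FH, so that its p-value is a description. The deeper Ribo-Zero libraries held 549 tags of Hist1h2ba in CCE and 4 in FH (49.2 and 0.212 RPKM), 482 and 9 of Hist1h2aa (43.0 and 0.477 RPKM) and 439 and 71 of Hist1h1t (16.8 and 1.61 RPKM). Hist1h2aa and Hist1h2ba lie side by side on chromosome 13, the former at chr13:24026331-24026720 and the latter at chr13:24025637-24026025 on the opposite strand. In the Ribo-Zero libraries CCE was above FH in both. In RiboMinus preparations the tissues overlapped for Hist1h2aa, with 0.948 RPKM in sheared CCE2 and 1.36 in sheared FH.

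Over all histone genes the Ribo-Zero libraries, with 1 library per tissue and hence no test, gave 43 of 59 genes (72.9%) over 2-fold lower in FH, where 21.9% of all genes were, and 0 over 2-fold higher, where 12.5% of all genes were, by the ratio of RPKM + 1. By the ratio of RPKM alone 45 were lower and 1, Hist2h2be, was higher, beside 29.5% and 16.9% of all genes. The median log2 ratio of FH to CCE was -1.25, against -0.42 over all genes.

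Genes that act on histone mRNA were compared by lists. Beside the shares over all genes given above (44.2% lower and 25.2% higher in FH, 30% and 34.1% on the median-of-ratios scale), the lists had these counts. Of the 12 tested genes of histone mRNA processing and histone gene transcription 9 were lower in FH and 1 was higher, with a median of -0.86 (7 and 2 on the median-of-ratios scale). The endonuclease gene Cpsf3, whose product cleaves histone precursor mRNA, fell by a log2 difference of -1.47 ± 0.12 (limma adjusted p = 5.71e-06), the U7 snRNP gene Lsm10 differed by -1.29 ± 0.16 (limma adjusted p = 7.09e-05) and the exonuclease gene Eri1 by -1.12 ± 0.21 (limma adjusted p = 0.0011), whereas the U7 snRNP gene Lsm11 rose by 0.52 ± 0.13 (limma adjusted p = 0.00527), though not in the Ribo-Zero libraries, with 4.49 RPKM in CCE and 4.03 in FH. Of 23 S phase genes 21 were lower and 0 higher in FH, with a median of -1.24 (17 lower on the median-of-ratios scale), among them the replicative helicase genes Mcm5 (-2.01) and Mcm2 (-1.79) and the licensing factor gene Cdc6 (-1.75). Of the 10 tested genes listed as replication-independent histones, 6 were lower and 1 was higher in FH, with a median of -0.36. On the median-of-ratios scale 2 were lower. The list holds H2afx, in which a stem-loop was found by the search above. H2afj was at -1.32, H3f3b at -0.81 and H1fx at 2.05, while in the Ribo-Zero libraries H1fx had the other order, with 24.8 RPKM in CCE and 7.10 in FH.

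In hydrolysed preparations 4 of the 12 processing and transcription genes were higher and 2 lower, and 10 of the 23 S phase genes were higher and 3 lower. Of the 10 genes listed as replication-independent histones 0 were higher and 3, H2afx among them, were lower. Over all genes 24.6% were higher and 17.6% lower.

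The depletion kits were compared in hydrolysed libraries, with 1 Ribo-Zero library per tissue, so that a gene was counted when its RPKM + 1 differed over 2-fold and intervals cover counting error only. Kit, RNA, tag length and sequencing location change together and cannot be told apart. In CCE 34 of 58 histone genes (58.6%) were over 2-fold higher in Ribo-Zero, where 11.4% of all genes were, and 0 were over 2-fold lower, where 16.2% of all genes were. In FH 12 of 57 (21.1%) were higher, where 7.45% of all genes were, and 0 were lower, where 21.9% of all genes were. The median log2 ratio was 1.20 in CCE and 0.36 in FH, against -0.18 and -0.35 over all genes. By the ratio of RPKM alone 36 were higher in CCE and 14 in FH, beside 16.6% and 12% of all genes, and 0 were lower, beside 22.5% and 30.9%. Against all RiboMinus libraries of the tissue, sheared ones included, 18 (31%) were higher and 2 (3.45%) lower in CCE, beside 12.9% and 18.2% of all genes. In FH 6 (10.3%) were higher and 5 (8.62%) lower, beside 7.69% and 22.6% of all genes. Of the other genes 19.9% were over 2-fold higher in CCE at up to 45% GC and 4.96% above 60%, and of the histone genes above 60% GC 62.5% were.

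**Figure D5:**
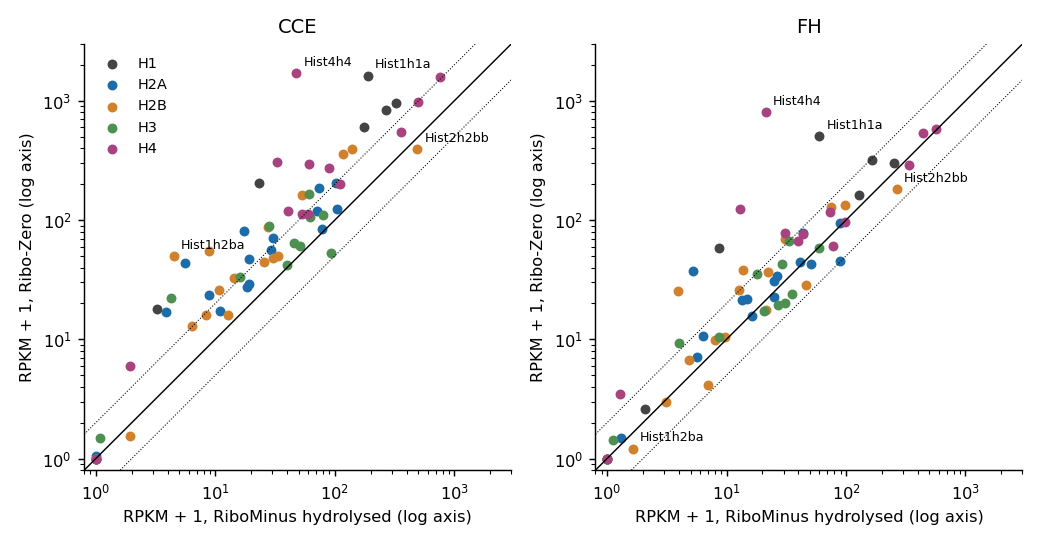
RPKM + 1 of each histone gene in the pooled hydrolysed RiboMinus libraries (x axis, log scale) and in the Ribo-Zero library (y axis, log scale) of CCE and FH, 1 point per gene coloured by class, with a solid line of equal level and dotted lines of 2-fold difference. Hist4h4 lies farthest above the lines in both tissues, at an RPKM of 46.6 and 1713 in CCE and 20.3 and 801 in FH.

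Hist4h4 (ENSMUSG00000068851.2, chr6:136752589-136752900), the only histone gene of the rule on chromosome 6, showed the largest difference between kits. It held 107 tags in the 4 hydrolysed RiboMinus libraries of CCE and 15343 in the CCE Ribo-Zero library, that is 46.6 and 1713 RPKM, a ratio of 36.8 (95% exact interval 30.4 to 44.9). In FH it held 51 and 12105 tags, 20.3 and 801 RPKM, a ratio of 39.4 (29.9 to 52.9). The 51 tags were unevenly spread, with 3 and 29 in preparations FH1 and FH2 at Vienna-IMP and 17 and 2 at Nijmegen, and without the library with 29 the ratio was 66.4. In both tissues Hist4h4 was the gene with the largest ratio, and 80.8% of its positions are unique to 36 nt tags.

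Hist1h2ba followed in CCE with 10 and 549 tags, a ratio of 14.1 (7.59 to 29.5), or 22.6 without the CCE2 library of Vienna-IMP. Hist1h2aa, with 13 and 482 tags, had a ratio of 9.50 (5.50 to 18.0). Hist1h4i had a ratio of 9.46 (7.93 to 11.4) in CCE and of 2.58 (2.16 to 3.10) in FH. Large ratios in both tissues were seen, among other genes, in Hist1h1a, at 8.64 in CCE and 8.64 in FH, and in Hist1h1d, at 9.16 and 7.55. Hist1h2bl was at 6.94 and 8.24, Hist1h2ah at 4.93 and 8.56 and Hist1h4k at 4.97 and 10.2. With tags up to the end of the stem-loop Hist1h4k was at 2.42 and 1.85. At the other end Hist1h3c had a ratio of 0.572 (0.509 to 0.643), which became 1.08 without the CCE1 library of Nijmegen, and Hist2h2bb one of 0.806 (0.782 to 0.831) in CCE, where Hist1h3d came next at 1.06 (0.945 to 1.20) among genes with an RPKM over 1 with either kit. Below that level Hist2h2be had 18 and 42 tags and a ratio of 0.598 (0.337 to 1.10). With tags up to the end of the stem-loop Hist2h2bb had a ratio of 1.15 in CCE and 0.933 in FH, so that in CCE its direction turned. By exon tags Hist1h3c and Hist2h2bb were also below 1 in FH, at 0.653 and 0.687. H1 took 45.3% of all histone tags in the CCE and 36.7% in the FH Ribo-Zero library, against 14.3% to 32.6% in the RiboMinus libraries, whereas H3 took 4.67% and 4.93%, against 12.3% to 22.5% in sheared and 5.30% to 10.5% in hydrolysed RiboMinus libraries.

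Promoters were compared as a feature that the choice of genes did not use. RefSeq promoters of GRCm38.p6 from 250 nt before to 50 nt after the start were matched to 60 of the 67 genes and searched on both strands. The letters CCAAT were found in 85% of them, against 39.0% of 17492 promoters of protein-coding genes, and in all 6 H1, 17 H2A, 16 H2B and 9 H3 promoters matched but in 3 of 12 H4 promoters. TATAAA was found in 58.3%, against 13.3%. ATGCAAA was found in 7 of 17 H2A and 6 of 16 H2B promoters, against 4.16% of all promoters, and in 0 of the H1 and 0 of the H3 promoters. Several H2A and H2B genes lie head to head at a distance below the window. In mm9, Hist1h2ae on the minus strand reaches chr13:23663089 and Hist1h2bg on the plus strand starts at chr13:23663265. The same site can thus be counted in both classes, so that their counts are not independent. AAACACA was found in 5 of 6 H1 promoters, against 6.13% of all promoters. H4 promoters thus mostly lacked CCAAT in this window, and the H4 genes with a stem-loop also carried stems not found in the other classes.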

How the data were processed

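RiboMinus and Ribo-Zero libraries were hydrolysed or sheared, sequenced and aligned by the authors with Bowtie to mm9, and the authors deposited 1 line with the positions of each uniquely aligned tag (36 nt with up to 2 mismatches in RiboMinus, 51 nt with up to 3 in Ribo-Zero libraries). Tags carry no strand of the RNA. Fragmentation was taken from the labels' field of that name, since the protocol text of sheared samples also describes hydrolysis. Further lanes and combined samples are not analysed here.

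A tag was assigned to a GENCODE M1 protein-coding gene when its midpoint fell in a merged exon, and RPKM was computed per library, or per preparation with both locations summed, from all unique tags. Tags of Hist1h2be, Hist1h2bm, Hist2h2ab, Hist2h2aa1, Hist2h3c1, Hist1h4b, Hist1h2ac and Hist3h2a may come from an overlapping gene. Differences were fitted with limma 3.58.1 (trend, R 4.3.3) on log2(RPKM + 1), which understates changes of low genes, over 7 preparations with tissue and fragmentation as terms, where the mean RPKM exceeded 1, with Benjamini-Hochberg adjustment over all tested genes. In simulated data on 12468 genes, all 200 genes changed 4-fold between the tissues were recovered and 13 unchanged genes were called. In the data 5532 genes were lower and 3155 higher in FH, and most histone differences were smaller than 4-fold. The simulation therefore gives no rate of found or false calls for differences of that size. Intervals are exact at 95% and cover counting error only. Counting and figures were done in Python 3.11.15 (pandas 2.3.3, numpy 2.4.6, matplotlib 3.10.9, scipy 1.17.1).

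The genes and lists were chosen with earlier results of these data known. Named are, in each class, the 3 genes with the highest RPKM of all tags per unique kb (replaced by the highest densities up to the stem-loop, after their values were seen, since annotated exons can run past it), the 5 largest tissue and 3 largest fragmentation differences in each direction past the threshold, the 3 highest and 3 lowest kit ratios of RPKM + 1 in CCE, genes with under 20% unique positions, the germline genes and up to 3 list genes each way. Others (Hist1h1b, H2afx and H1fx in the tests, Hist1h2al and Hist2h2ab on the median-of-ratios scale, Vim, and Hist1h1a, Hist1h1d, Hist1h2bl, Hist1h2ah and Hist1h4k between kits) were chosen after their values were seen. Alternatives were another pseudocount, filter, scale, counting rule or location, each position counted once, no covariate, a replicate block, and each preparation left out. Removal of a GC trend, exchanged preparation numbers and ratios without a pseudocount, and tags up to the end of the stem-loop in place of exon tags, were added after seeing the data.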

Additional observations from a re-analysis of the deposited data

Results flagged for a closer look

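In the 117 groups of 4 libraries tested, 2 held a library apart from the other 3 by Dixon's criterion, where chance gives about 1 in 20 groups. In the hydrolysed CCE RiboMinus libraries the RPKM of Hist4h4 was 94.97 in preparation CCE1 at Nijmegen and 32.4 to 35.3 in the other 3. In the hydrolysed FH RiboMinus libraries the RPKM of Hist1h2aa was 1.20 in preparation FH2 at Nijmegen and 0 in the other 3, which is 1 tag beside 3 libraries at 0 and meets the criterion by construction.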

How the results depend on the processing

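Counts of called histone genes in this section are given without the share over all genes. They describe how calls change with the setting and not a difference from all genes. Of the 26 histone genes lower in FH, by a count of shared genes, 15 were called on the median-of-ratios scale, 17 with each position counted once, 16 with Vienna-IMP libraries, 13 with Nijmegen libraries and 9 with no covariate. The 3 higher became 7 on the median-of-ratios scale, where the median was -0.13, and 1 with Nijmegen libraries. Without 1 preparation 20 to 36 were lower, 2 to 6 higher and the median -0.68 to -0.36, and 6 were higher without the sheared CCE1 preparation. Of the 42 genes lower in hydrolysed preparations, 22 were called with Vienna-IMP libraries (median -0.90), and the median was -0.90 with each position counted once and -0.80 with the GC trend removed. The 2 higher became 1 with tags up to the end of the stem-loop, where 42 remained lower, a pseudocount of 0.25, no filter, the median-of-ratios scale, any overlap with an exon, Nijmegen libraries or exchanged Nijmegen hydrolysed numbers, and 0 with each position counted once or Vienna-IMP libraries. Without 1 preparation 32 to 49 were lower, 0 to 2 higher and the median -1.48 to -1.003. With each position counted once, a count capped as described above, Hist2h2bb was at -0.35 and Hist1h2bb at -0.073. Against all RiboMinus libraries 18 genes were over 2-fold higher and 2 lower in Ribo-Zero in CCE, with Hist1h3d at a log2 ratio of -0.65, and 6 higher and 5 lower in FH. With tags up to the end of the stem-loop 32 of 54 were higher and 0 lower in CCE, with Hist2h2bb at a log2 ratio of 0.21, and 11 of 52 were higher and 1, Hist3h2a, lower in FH. The summed level of FH over CCE in hydrolysed preparations was 0.693, or 0.666 to 0.723 without 1 preparation, and 0.893 per tag in protein-coding exons. The sheared over hydrolysed ratio in CCE was 1.71, and 1.19 to 2.24 without 1 preparation. The cause was not tested.

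With the replicate block, which pairs sheared and hydrolysed preparations of 1 RNA by number, 41 genes were lower and 1 higher. With the block and the GC trend removed 26 were lower and 1 higher, at a median of -0.75. With exchanged Nijmegen hydrolysed numbers and the block, 23 were lower and 0 higher, and with exchanged Vienna-IMP hydrolysed numbers and the block, 46 were lower, the 42 among them, and 2 higher. With exchanged numbers at either location and no block 39 were lower and the adjusted p of Hist1h3i in limma was 0.00228, against 0.000316. The difference of preparation 1 and 2 correlated between locations at 0.378 over 12502 genes in sheared CCE, but at -0.372 and -0.382 in hydrolysed CCE and FH, and between sheared and hydrolysed CCE at -0.453 at Vienna-IMP, 0.363 at Nijmegen and -0.117 with both summed. Exchanging the Vienna-IMP hydrolysed numbers gave 0.600, so the block by exchanged Nijmegen numbers joins CCE preparations that deviate in opposite directions.

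Depth limits single RiboMinus libraries to abundant genes, and shared sequence leaves 21 genes under 20% unique positions.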
